A study of Ganoderma lucidum with 6 samples.

Results

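Kinesin-like genes were chosen by their annotation, as the genes whose KOG description (a class of related eukaryotic proteins) reads "Kinesin-like protein", and 8 of the 16113 genes in the table met it. The rule names no measured value, but the family was taken up with the results of this comparison known, so its fold changes and test results below describe the data and support nothing about the choice. The libraries came from mycelia of the wild type of Ganoderma lucidum, a mushroom that decays wood, sampled on day 3. The cultures of 3 libraries held ammonium sulfate as their nitrogen salt, and those of 3 held sodium nitrate, so the groups also differ in sulfate and sodium. The labels give no strain name or culture conditions beyond this, and they do not say whether replicates were separate cultures. The spread behind each p-value is that between these libraries and may be technical.

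Kinesins are motor proteins that turn ATP hydrolysis into movement along microtubules. In filamentous fungi, members of the superfamily carry vesicles and organelles along the hypha, and others work in the mitotic spindle, where they separate the spindle pole bodies, move chromosomes and take part in cytokinesis. In bulk RNA, fewer cells or nuclei in division and less RNA per cell cannot be told apart.

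Gene totals ran from 19979528 to 27604895 counts per library. In each group replicate 1 stood apart from the rest: over genes, replicates 2 and 3 correlated at r = 0.989 in ammonium and 0.987 in nitrate, against 0.970 to 0.975 for the pairs that held a replicate 1. The counts of called genes for the family and for each list below are therefore also given without them. Levels are FPKM as deposited, which are scaled by gene length and can be compared between genes. Fold changes come from raw counts, on the log2 scale, positive where nitrate is higher, with their standard error (SE, n = 3 and 3). A gene was called where edgeR's two-sided quasi-likelihood test gave a Benjamini-Hochberg adjusted p, taken over 11993 tested genes, of less than 0.05. For the mycelium label, 80 genes described as meiotic or carrying a meiosis identifier were detected in every library, and no KOG description named a hydrophobin. Of the 80, 9 were called lower and 5 higher, where 8.13% of all tested genes were lower and 7.5% higher. Among them 8 are also in the lists below. Detection of genes chosen by annotation cannot decide the stage of the mycelia. The summed level of the 80 genes was 4767 to 6202 CPM, counts scaled to the library total, in ammonium and 4277 to 5938 in nitrate. Its part in the kinesin results was not tested.

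The 8 genes fell into 5 KOG entries. GL24881-G and GL24834-G belong to KOG0243, GL31163-G and GL19513-G to KOG0242, GL24336-G and GL31677-G to KOG4280, GL26774-G to KOG0245 and GL30463-G to KOG0247. All 8 carried the GO identifiers for microtubule motor activity, microtubule-based movement, the microtubule and ATP binding, the 4 that they shared out of 75 among them. Identifiers of mitosis or cytokinesis were carried by 6 of them, all but GL24881-G and GL26774-G. The genes lay on 6 scaffolds, 4 on each strand. The names of GO identifiers are general knowledge, and many of these were made for animals or yeasts.

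GL31677-G and GL31163-G are neighbours on the plus strand of scaffold 6, at 603239 to 603758 and at 603777 to 606551, with 18 bases between them. They shared 19 GO identifiers, of 21 and 20 respectively. Whether these models are pieces of 1 gene was not tested.

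On the FPKM scale, per length, GL24881-G was the most abundant member at 20.7 ± 4.87 FPKM (SD, n = 3) in ammonium and 12.4 ± 3.21 in nitrate. GL26774-G followed at 12.5 ± 3.19 and 7.91 ± 0.926 FPKM, and GL24834-G came next. The other members stayed under 6 FPKM in the mean of either group. By group means the order of the 8 genes was the same in both groups, with GL30463-G and GL31677-G last. In ammonium, the ranges of neighbours in that order overlapped except between GL24834-G and GL24336-G and between GL31163-G and GL30463-G. In nitrate, the first 4 genes of the order did not overlap and the rest did. The ratio of GL24881-G to GL30463-G was 5.74 in ammonium and 6.28 in nitrate.

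All 8 members were lower in nitrate than in ammonium by their fitted fold change, in a narrow range that left the mean FPKM in nitrate at 51.2 to 63.2% of that in ammonium for 7 of them and at 34.6% for the sparsely counted GL31677-G. Called lower were 4 of the 8, GL24834-G, GL24336-G, GL19513-G and GL30463-G, and none was higher. Of all tested genes 8.13% were called lower and 7.5% higher, and nothing is read from the members' share, since the family was taken up with these results known. Fold changes were below 0 in 49.4% of tested genes, whose median was 0.01, against -0.88 for the members. The FPKM of the groups did not overlap for 6 members, nitrate being lower, as for 17.9% of tested genes. The 4 calls lie close to the threshold (adjusted p = 0.0263 to 0.0443, edgeR). Each was lost in some or all of the fits without 1 library. None of the 8 was called without ammonium replicate 2, ammonium replicate 3 or nitrate replicate 3. In each of these fits 5 members were at an unadjusted p under 0.05. Over all genes the same fits called 794, 655 and 701, in place of 1874 with all libraries. Without nitrate replicate 1, GL24881-G alone was called, without nitrate replicate 2 there were 3, and without ammonium replicate 1 there were 5. Over all genes these fits called 1680, 1133 and 1946 respectively. DESeq2 called 5 of the 8, and limma on log2(FPKM + 1) called GL24834-G alone. Over all genes DESeq2 called 2579 of 13290, and limma 1608 of 11307. With a block for replicate number, none of the 8 was called (lowest adjusted p = 0.132, edgeR), and over all genes 225 were. Without replicate 1 of both groups, a fit chosen once the data had been seen, all 8 were called, and over all genes 4898 were called in place of 1874. The fitted fold changes stayed below 0 for every member in each of these fits.

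**Figure D1:**
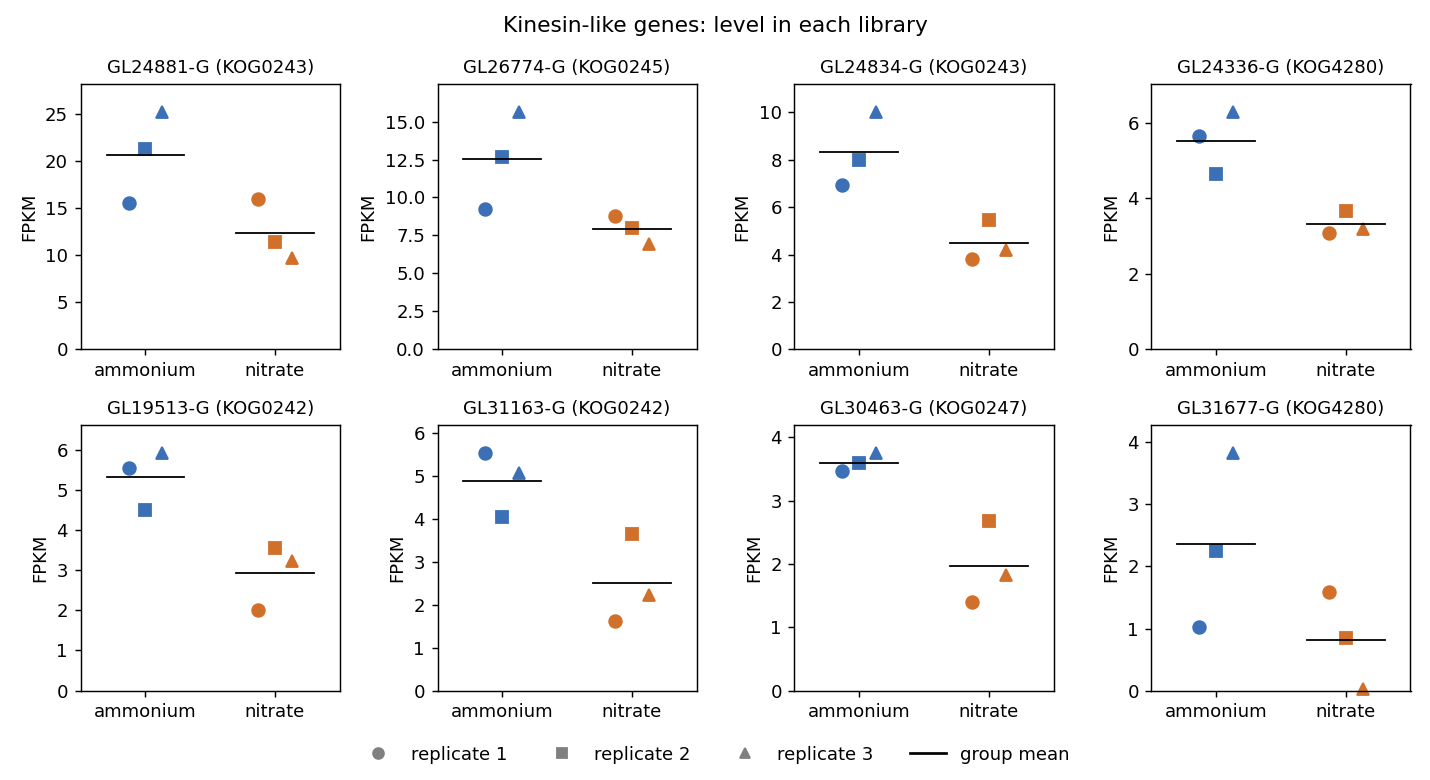
FPKM of each kinesin-like gene (vertical axis, from 0) in the 3 ammonium and 3 nitrate libraries, with replicates marked by shape and a line at the group mean. For 6 of the 8 genes the groups did not overlap, while in GL24881-G and GL31677-G nitrate replicate 1 lay above ammonium replicate 1.

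Among the spindle genes, GL24834-G carries identifiers for the initial separation of spindle pole bodies and of centrosomes, the step for which the BimC motor of Aspergillus and Cut7 of fission yeast are known. It lies on the plus strand of scaffold 4 at 454005 to 457868. Its levels in ammonium replicates 1 to 3 were 6.94, 7.98 and 10.0 FPKM, and in nitrate replicates 1 to 3 they were 3.80, 5.45 and 4.21 FPKM. Every nitrate library was below every ammonium library. GL24834-G had a log2 fold change of -0.90 ± 0.21 (SE, adjusted p = 0.0263, edgeR), and the adjusted p ran from 0.0151 to 0.102 in the fits without 1 library.

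GL31163-G carries identifiers for attachment of spindle microtubules to the kinetochore, mitotic sister chromatid segregation and microtubule depolymerization. It stood at 5.52, 4.04 and 5.06 FPKM in ammonium and at 1.61, 3.64 and 2.23 FPKM in nitrate. The groups did not overlap, though nitrate replicate 2 was close to ammonium replicate 2. The log2 fold change of -0.98 ± 0.28 missed the threshold (adjusted p = 0.0529, edgeR). The call was made by DESeq2 (adjusted p = 0.0113), and by edgeR when nitrate replicate 2 was left out (adjusted p = 0.0221).

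The adjoining GL31677-G had 9, 21 and 36 counts in ammonium and 14, 8 and 1 in nitrate, where 3 counts is the limit that a count of 0 allows. Its groups overlapped, and the log2 fold change was -1.34 ± 0.72 (adjusted p = 0.248, edgeR). It entered the test through ammonium replicates 2 and 3 and nitrate replicate 1. In nitrate replicate 3 its 1 count stands beside 0.0274 FPKM, less per count than in the other libraries, so FPKM of this gene is not a plain rescaling of its counts. With its counts summed with those of GL31163-G, also chosen once the data had been seen, the pair had a log2 fold change of -0.997 and an adjusted p of 0.0422 (edgeR). GL31163-G held most of the summed counts, with 116 against 14 in nitrate replicate 1. Over the 6 libraries the log2 CPM of the pair correlated at r = 0.45.

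GL19513-G, the other member of KOG0242, carries identifiers for the alignment of chromosomes at metaphase and for attachment to the kinetochore. It lies on scaffold 3 at 440778 to 443675, on the minus strand. In ammonium it was measured at 5.54, 4.51 and 5.91 FPKM, and in nitrate at 2.01, 3.55 and 3.23 FPKM. The lowest value was that of nitrate replicate 1, and the groups did not overlap. Its log2 fold change was -0.88 ± 0.23 (adjusted p = 0.0366, edgeR), a call that was lost in each of the 6 fits without 1 library (adjusted p = 0.0522 to 0.134).

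GL24336-G carries identifiers for chromatin, DNA binding, DNA repair and chromosome alignment, the kind of annotation given to animal chromokinesins, motors that bind chromosome arms. It lies on the plus strand of scaffold 35 at 319501 to 322499. Its 3 ammonium libraries gave 5.66, 4.65 and 6.29 FPKM, and its 3 nitrate libraries 3.09, 3.66 and 3.18 FPKM. The nitrate values lay close together and below all ammonium values. It was called lower at -0.75 ± 0.19 on the log2 scale (adjusted p = 0.0336, edgeR). Of the 6 fits that left out a library, only that without ammonium replicate 1 kept the call.

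GL30463-G carries identifiers for mitotic cytokinesis, the midbody and the spindle, the places where motors of the MKLP type act in animal cells. It lies on the minus strand of scaffold 1 at 1321117 to 1324535. Ammonium libraries were at 3.47, 3.59 and 3.75 FPKM and nitrate libraries at 1.39, 2.69 and 1.83 FPKM. The ammonium values were nearly equal and the nitrate values spread more widely below them. The log2 fold change was -0.89 ± 0.24 (adjusted p = 0.0443, edgeR, and 0.0283 to 0.150 without 1 library). Its model overlaps by 257 bases that of GL30195-G on the other strand, a TPR repeat gene at 55.8 FPKM in ammonium and 58.7 in nitrate. Whether counting used strand is not given in the sources used here, so reads in that stretch could not be told apart.

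The remaining pair carry no identifier of mitosis. GL26774-G has identifiers for vesicle-mediated transport and for anterograde transport in axons, processes named from animals, where motors of the UNC-104 type carry vesicles. It lies on scaffold 9 at 595486 to 601383. Its values were 9.24, 12.7 and 15.6 FPKM in ammonium and 8.79, 7.99 and 6.94 FPKM in nitrate. The FPKM of the groups did not overlap, but on the log2 CPM scale with TMM factors nitrate replicate 1, at 5.67, was above ammonium replicate 1, at 5.60. The log2 fold change of -0.67 ± 0.24 was not called (adjusted p = 0.0968, edgeR). Without ammonium replicate 1 it was called (adjusted p = 0.0236).

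GL24881-G, the only member with a KEGG entry, is annotated there and by GO to Hedgehog signalling and cilia, functions named from animals. It lies on scaffold 4 at 990422 to 997228. Its values were 15.5, 21.3 and 25.2 FPKM in ammonium and 16.0, 11.4 and 9.75 FPKM in nitrate. Nitrate replicate 1 overlapped the ammonium group, and the other nitrate libraries were below it. The log2 fold change of -0.74 ± 0.28 was not called (adjusted p = 0.114, edgeR), and it was called without either replicate 1 (adjusted p = 0.0433 without that of ammonium and 0.0327 without that of nitrate).

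**Figure D2:**
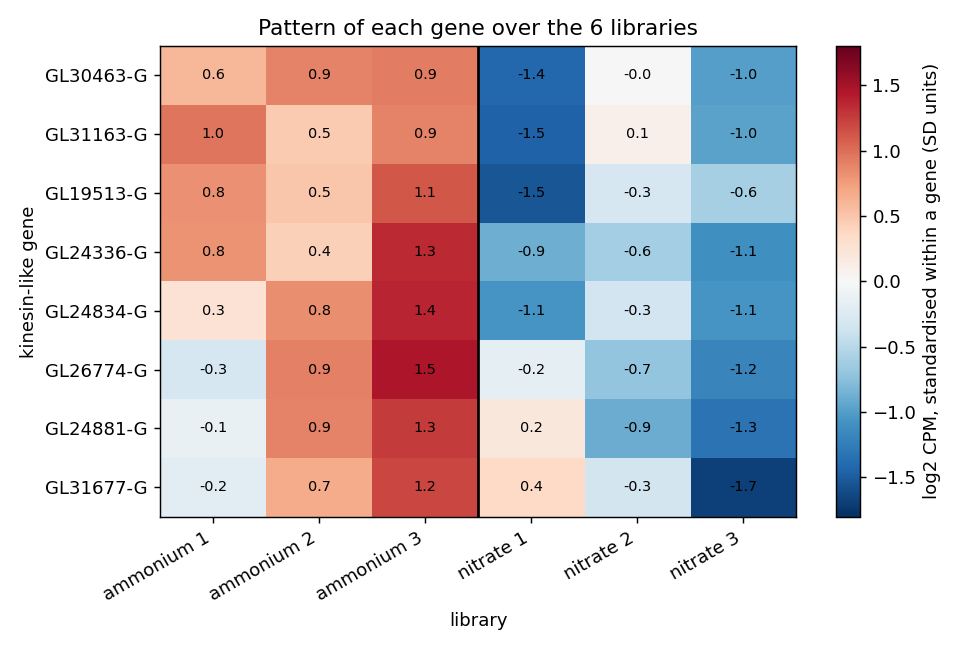
Each row is a kinesin-like gene and each column a library, with the colour and number giving log2 CPM standardised within the gene (SD units). GL26774-G, GL24881-G and GL31677-G are highest in nitrate replicate 1 among the nitrate libraries, and the other 5 genes are highest in nitrate replicate 2.

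Over the libraries of a group, the order of levels differed between members. In nitrate, 5 members were highest in replicate 2, namely GL30463-G, GL31163-G, GL24336-G, GL19513-G and GL24834-G, and GL24881-G, GL26774-G and GL31677-G were highest in replicate 1 and lowest in replicate 3. By FPKM the first 5 were lowest in nitrate replicate 1, as were 53.4% of tested genes. On the log2 CPM scale GL24336-G and GL24834-G were lowest in nitrate replicate 3 instead. In ammonium, 7 of 8 members were highest in replicate 3, as were 32.8% of tested genes by FPKM, and GL31163-G was highest in replicate 1. GL24881-G, GL26774-G and GL31677-G were lowest in ammonium replicate 1, as were GL30463-G and GL24834-G.

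Within a library, the ratio of counts of GL24881-G to GL24834-G does not depend on library size. It was 3.98, 4.75 and 4.47 in ammonium and 7.45, 3.73 and 4.11 in nitrate. Nitrate replicate 1 stood above the others, which overlapped between groups. The same library was highest for GL26774-G against GL24834-G, at 3.25, with the other 5 between 1.88 and 2.32. GL24881-G and GL26774-G together held 65.4 to 73.4% of all counts of the family in 5 libraries and 80.9% in nitrate replicate 1. Together the 8 genes took 243, 291 and 352 CPM in ammonium and 193, 181 and 151 CPM in nitrate, groups that did not overlap.

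Besides the 8, the table names other kinesin genes by subfamily. GL21845-G, of the KAR3 subfamily, whose founding member in budding yeast works in nuclear fusion and the spindle, was at 6.87, 5.84 and 8.77 FPKM in ammonium and 2.51, 3.48 and 3.36 FPKM in nitrate. The groups did not overlap, and it was called lower (log2 fold change -1.22 ± 0.21, adjusted p = 0.00989, edgeR). Each of the 6 fits without 1 library made this call. GL17341-G, of the SMY1 subfamily and more abundant than any of the 8, was at 44.8, 44.1 and 51.9 FPKM in ammonium and 42.6, 41.7 and 40.1 FPKM in nitrate. It lies 1113 bases before GL24834-G on scaffold 4, with 1 gene model between them, and was not called (log2 fold change -0.19 ± 0.16, adjusted p = 0.471). GL29957-G has the KOG description of kinesin light chain, which in animals links the motor to cargo, and was not called either (adjusted p = 0.311). Whether it acts as one in this fungus was not tested. The difference between these genes and the 8 members was not tested.

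**Figure D3:**
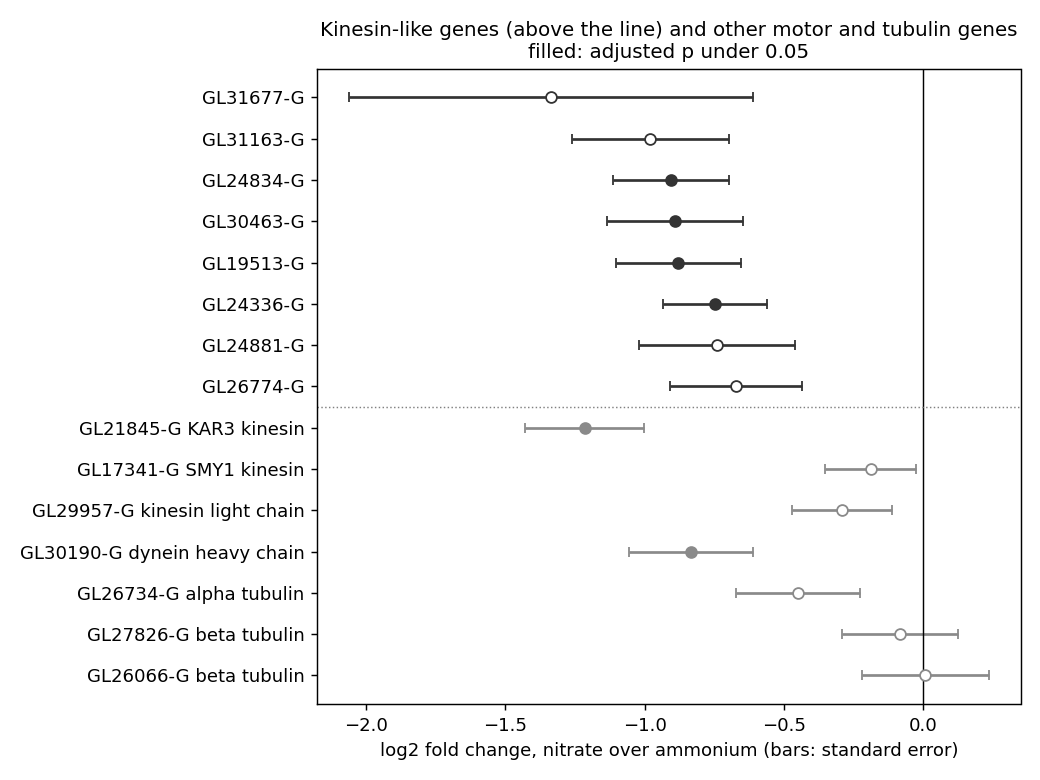
Log2 fold change of nitrate over ammonium (horizontal axis) with its standard error for the 8 kinesin-like genes and, under the dotted line, 7 other motor and tubulin genes, with filled points at an adjusted p under 0.05. The kinesin-like genes run from -1.34 to -0.67. KAR3 kinesin (-1.22) and dynein heavy chain (-0.83) lie in that range, and the rest, among them SMY1 kinesin and both beta tubulins, are nearer 0.

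The track and the opposing motor were measured beside the kinesins. Alpha tubulin, GL26734-G, was 425 ± 67.2 FPKM in ammonium and 312 ± 41.0 in nitrate (adjusted p = 0.208, edgeR). Without replicate 1 of both groups it was called lower (log2 fold change -0.72, adjusted p = 0.00542). Of the beta tubulins, GL27826-G was 732 ± 90.8 and 695 ± 76.0 FPKM (adjusted p = 0.828) and GL26066-G 42.0 ± 7.43 and 42.8 ± 13.4 FPKM (adjusted p = 0.984). No gene was described as gamma-tubulin itself. The list of tubulin, its folding and nucleation, and the spindle pole body shares 11 genes with the other lists. Of its 17 tested genes, 4 were lower and 0 higher at an unadjusted p under 0.05, the same counts as by DESeq2. Over all genes DESeq2 called 1294 lower and 1285 higher of 13290. The share of all genes at an unadjusted p under 0.05 was not counted, so list counts at that limit have no background. By edgeR 3 were called lower and none higher, where 8.13% of all tested genes were lower and 7.5% higher. The 3 were GL17102-G, a regulator of spindle pole body duplication (log2 fold change -1.14), the spindle pole body protein GL29060-G (-0.73) and the gamma-tubulin ring complex protein GL31389-G (-0.87). Dynein heavy chain, GL30190-G, the motor that walks opposite to most kinesins, was at 9.28, 12.1 and 14.5 FPKM in ammonium and 7.21, 7.20 and 5.90 FPKM in nitrate. It was called lower (log2 fold change -0.83 ± 0.22, adjusted p = 0.0409), but not in the fits without ammonium replicate 2 or 3 or nitrate replicate 2 or 3. Of 12 tested dynein and dynactin genes, dynein light chain GL23508-G was also lower (-1.11) and dynactin p25, GL21582-G, was higher (1.05). At an unadjusted p under 0.05, 3 genes of this list were lower and 2 higher, and DESeq2 called 2 lower and 2 higher. Without ammonium replicate 3 or without nitrate replicate 3, none of GL17102-G, GL29060-G, GL31389-G, GL23508-G and GL21582-G was called, and GL31389-G was called in none of the 6 fits without 1 library (adjusted p = 0.0562 to 0.122). The 19 genes with a motor or microtubule movement identifier include the 8 members, so their count partly repeats that of the family. Of the 19, 7 were called lower, the 4 members, GL21845-G, GL30190-G and GL23508-G, and none higher. Over all tested genes the shares were 8.13% lower and 7.5% higher. The others with such an identifier were GL31241-G, GL24401-G, GL15743-G, GL30412-G, GL26094-G and GL24245-G, with adjusted p-values from 0.0574 to 0.952 (edgeR). Of the 19 genes, 17 had a fold change below 0. The dynein intermediate chain GL15743-G (log2 fold change 0.598) and GL26094-G (0.359) were above 0, and their FPKM did not overlap, nitrate being higher. DESeq2 called GL15743-G higher (adjusted p = 0.0223), and so did edgeR on genes of at least 50 counts in 3 libraries (adjusted p = 0.0478).

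Of 48 tested genes of the spindle and chromosome segregation, 11 were lower, none was higher and 37 were not called, with a median log2 fold change of -0.39, where 8.13% of all tested genes were lower and 7.5% higher. At an unadjusted p under 0.05, 2 were higher and 19 lower, a limit for which no share over all genes was counted. DESeq2 called 2 higher and 13 lower, and over all 13290 genes 1285 higher and 1294 lower. Those of smallest adjusted p were the cohesin subunit SMC3, GL25733-G (log2 fold change -1.17, adjusted p = 0.00428, edgeR), the mitotic checkpoint kinase GL17946-G (-1.28, adjusted p = 0.00846) and GL17102-G. SMC3 and GL17946-G were called in each of the 6 fits without 1 library. This list shares 12 genes with the others. Without ammonium replicate 3 or without nitrate replicate 3, 2 of its genes were called lower. Over all genes 382 and 386 were called lower in these fits, in place of 975. Genes whose description matched words for actin and myosin, actin-related proteins included, gave 2 lower and 1 higher of 41, with a median of -0.14. At an unadjusted p under 0.05, 10 of these were lower and 1 higher, and DESeq2 called 5 lower and 1 higher. The higher one was the actin-related Arp6p, GL23634-G (2.01, adjusted p = 0.000613), and the lower ones were the class II myosin GL21251-G (-0.73) and the myosin assembly protein GL29501-G (-0.84). Arp6p was called in each fit without 1 library, while the calls of GL21251-G and GL29501-G were lost without replicate 2 or 3 of either group. None of 6 tested septin and cytokinesis genes and none of 6 microtubule-associated genes was called (edgeR), nor by DESeq2. At an unadjusted p under 0.05 there were 0 septin and cytokinesis genes and 2 microtubule-associated genes, both higher. Without ammonium replicate 1, 2 microtubule-associated genes were called higher, as were 910 genes over the table. Without replicate 1 of both groups, where 4898 genes were called over the table, the genes called lower and higher were 23 and 3 in the spindle list and 12 and 2 among actin and myosin genes. They were 6 and 1 in the tubulin list and 5 and 3 among dynein and dynactin genes. They were 2 and 2 among microtubule-associated genes, 2 and 0 among septin and cytokinesis genes, and 1 and 0 among genes described as kinesin outside the 8.

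**Figure D4:**
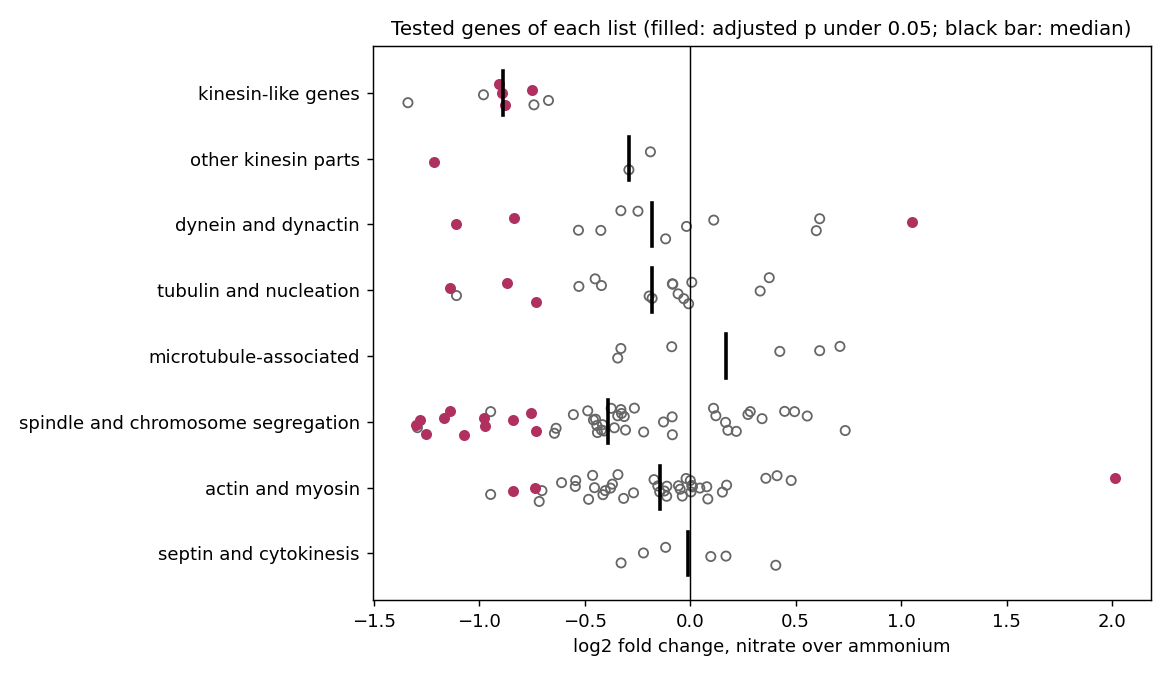
Log2 fold change of nitrate over ammonium for every tested gene of the kinesin-like family and 7 lists, with called genes filled and a black bar at the median. The kinesin-like median is -0.88. That of the spindle and chromosome segregation list is -0.39, and that of the septin and cytokinesis list is -0.01.

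The genes most like the family in pattern were found by the correlation of log2 CPM with the members' mean standardised profile over the 6 libraries, among 4796 tested genes with a description. The profile separates the groups, so genes that differ between the salts score high, and 474 genes exceeded r = 0.9. The first 5 were the MYST-family histone acetyltransferase GL20006-G (r = 0.997), the SAP-family phosphatase-associated protein GL24496-G, condensin subunit D2, GL26743-G, the Cdc2-related kinase GL25216-G and the acyl-CoA synthetase GL23139-G. The 5 most opposite were the cinnamoyl-CoA reductase type gene GL22937-G (r = -0.997), the RRM protein GL20761-G, the acyl-CoA oxidase GL27881-G, the splicing factor GL24711-G and the undescribed conserved protein GL29887-G.

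Next to the members on their scaffolds, 1 gene outside the family was called. GL19520-G, without a description, lies 1157 bases after GL19513-G on the same strand and was at 2913 FPKM in ammonium and 7388 in nitrate (log2 fold change 1.32, adjusted p = 0.011, edgeR), the opposite direction to its kinesin neighbour. Without ammonium replicate 3 it was not called (adjusted p = 0.0619). The other neighbours were not called.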

How the data were processed

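RNA sequencing (Illumina, isolated mRNA) covered 6 libraries of mycelia, grouped by their titles. The authors deposited 1 table with raw read counts per gene, TPM and FPKM, per the file headers. TPM and FPKM were computed by the authors, per the file headers, and TPM were not used further. Not given in the sources used here are the aligner, counting tool, genome build and strand setting. No reference sequence was used.

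Counts were tested with edgeR 4.0.16 (R 4.3.3): TMM factors, filterByExpr (minimum count 10), robust quasi-likelihood fit on all 6 libraries without a block, over 11993 genes (biological coefficient of variation 0.248, 4 residual degrees of freedom). The SE was derived from the F statistic. Alternatives were RLE factors, 2 other filters on low counts, DESeq2 1.42.0, limma-trend 3.58.1 on log2(FPKM + 1) for genes of at least 1 FPKM in 3 libraries, a replicate block, and each library left out. A count of 3 corresponds to 0.109 to 0.150 CPM, and such a limit reflects counting error only. Simulated data with known changes were used to test the steps.

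The members and lists were chosen with earlier results of these data known. Lists are word patterns on the KOG descriptions. Named genes are all members, all genes with a motor or microtubule movement identifier, tubulins, dynein heavy chains and, per list, the 3 called genes with the lowest adjusted p. Other genes of the lists are given by counts alone.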

Additional observations from a re-analysis of the deposited data

How the results depend on the processing

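RLE factors, the filters on low counts and the summed pair GL31163-G and GL31677-G left 4 or 5 kinesin-like genes called, and DESeq2 called 5. By limma on log2(FPKM + 1) 1 was called, with GL30463-G at -0.65, GL24336-G at -0.59 and GL19513-G at -0.70 no longer past the threshold. The labels do not say whether replicate numbers pair the samples. Same-numbered libraries deviated from their group means with correlations of -0.66, -0.35 and -0.46. With 3 libraries per group these values cannot decide whether the samples are paired. With the replicate block, 0 members were called (5 at an unadjusted p under 0.05, DESeq2 without the block 5), and GL30463-G was at -0.93, GL24336-G at -0.74, GL19513-G at -0.90 and GL24834-G at -0.90. The block left 140 genes lower and 85 higher over the table, and 0 and 1 over the 7 lists joined. Without 1 library each, 0 to 5 members were called, over all genes 382 to 1036 were lower and 273 to 910 higher, and over the lists 3 to 18 and 1 to 4, against 17 and 2 with all libraries. DESeq2 called 5 list genes higher. Fold changes without 1 library ran from -1.18 to -0.73 for GL30463-G, -1.03 to -0.57 for GL24881-G, -0.88 to -0.49 for GL26774-G, -1.35 to -0.77 for GL31163-G, -0.835 to -0.650 for GL24336-G, -1.04 to -0.70 for GL19513-G, -2.12 to -0.85 for GL31677-G and -1.065 to -0.757 for GL24834-G. Members taken by GO identifier gave 7 called lower among 19 genes, the 8 members included, where 8.13% of all tested genes were lower. DESeq2 gave GL31163-G -0.985. In fits added after seeing the data, the summed pair was at -0.997, and without replicate 1 of both groups 8 members were called, GL24881-G at -1.22, GL26774-G at -1.004, GL31163-G at -0.705 and GL31677-G at -2.47. Over all genes 2534 were then lower and 2364 higher, and over the lists 47 and 10. Those libraries were chosen from the data, so these p-values can be too small. Genes near 0 changed sign without being called: dynein light intermediate chain GL31241-G (0.009 with at least 50 counts in 3 libraries, -0.069 to 0.056 without 1 library), the dynein-associated GL24245-G (0.01 without replicate 1 of both groups), and the beta tubulins GL26066-G (-0.011 by limma, -0.019 with the replicate block, -0.15 to 0.211 without 1 library) and GL27826-G (-0.215 to 0.03 without 1 library). The causes were not tested. Low counts limit GL31677-G. The members' median log2 fold change ran from -1.05 to -0.698 over all settings tried, the latter by limma on log2(FPKM + 1).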
